A study of Mus musculus with 3 samples.

Results

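The genes described here are 7 components and receptors of complement, and their RNA was read in a myeloid population sorted from mouse bone marrow. They were chosen by name as C3, Cfp, C1qa, C1qb, C1qc, C3ar1 and Vsig4, and all 7 were found among the 11419 genes listed in the deposited tables. There was 1 group of 3 libraries, with no treatment and no second population to set it against. The cells were CD11b+F4/80+CD169+CX3CR1neg, taken from tibiae and femurs of C57BL/6 mice, an inbred wild-type strain, by crushing the bones lightly and sorting into Trizol. The design text sets the word macrophages in quotation marks. The labels do not tie a library to a mouse, so p-values over libraries reflect a spread that may be wholly technical.

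Complement is a cascade of plasma proteins that tags microbes and dying cells for uptake by phagocytes. In the classical pathway C1q, built from an A, a B and a C chain encoded by C1qa, C1qb and C1qc, binds the target and starts the cascade, and tissue macrophages are its main source. C3 is the protein on which all routes converge, and properdin, the product of Cfp, steadies the enzyme that cleaves C3 in the alternative pathway. Properdin is known from human neutrophils as a granule protein, and the comparison made here sets C3 and Cfp, taken as products of granulocytes, against the C1q genes in each library. C3ar1 encodes the receptor for the fragment C3a, and Vsig4 encodes CRIg, a receptor of resident tissue macrophages for C3 fragments on opsonised particles.

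Levels are given as CPM, a gene's reads in every 1000000 reads assigned to listed genes. Assigned reads came to 5150020 in replicate 1, 40149274 in replicate 2 and 37604930 in replicate 3, so that 10 CPM stood for 51.5, 401 and 376 reads. A gene with 0 reads may have been present at up to 0.583, 0.0747 or 0.0798 CPM in these libraries, a limit of 3 reads. Intervals and limits cover counting error only, because reads counted without molecular identifiers may be copies of one another. Of the 16 macrophage markers, 15 could be tested against a level of 10 CPM (limma, adjusted p under 0.05). Of these, 5 were above (Vcam1, Csf1r, Cd68, Adgre1 and Axl, means of 16.8 to 74.3 CPM), 9 below and 1 not called. Over all 11123 genes tested, 58.8% were above and 28.3% below. Adgre1, which encodes the F4/80 of the gate, was at 18.6, 26.5 and 21.4 CPM in replicates 1, 2 and 3. Siglec1, which encodes CD169, was at 0.388, 3.66 and 4.57 CPM, and the 16 markers together reached 232 to 265 CPM. The 13 late neutrophil markers together reached 193589 to 230998 CPM, and the population is therefore named here by its gate. In such bulk RNA, fewer cells of a type and less RNA per cell cannot be told apart.

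C3 was the highest of the 7 genes in every library, in CPM and per kb of exon. It was at 2808 CPM in replicate 1, 3466 CPM in replicate 2 and 3677 CPM in replicate 3, a mean of 3317 ± 453 CPM (SD, n = 3). The lowest of these values was that of the shallowest library, and the highest library exceeded it 1.31-fold. Against a fixed level of 10 CPM, the log2(CPM + 1) level of C3 stood 8.23 higher (SE 0.11, limma adjusted p = 1.07e-24), where 1 is the pseudocount. Of the 11123 genes tested this way, 58.8% were called above 10 CPM at an adjusted p under 0.05 and 28.3% below, so a call above was the common outcome. For C3 the limma adjusted p was 1.18e-06 with no variance trend and 6.20e-05 without replicate 2. C3 lies on the minus strand of GRCm38 chromosome 17 (57203970 to 57228136, ENSMUSG00000024164), a protein-coding gene whose longest transcript has 41 exons and 5136 bases. A miRNA gene, Mir6978, lies within it on the same strand.

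Cfp was second, also without overlap with any other of the 7 genes. Properdin RNA was at 262 CPM in replicate 1, 283 CPM in replicate 2 and 216 CPM in replicate 3, a mean of 254 ± 34.4 CPM (SD, n = 3). Replicate 3 was the lowest here, and the libraries differed by no more than 1.31-fold. It stood 4.53 above 10 CPM in log2 (SE 0.11, limma adjusted p = 3.49e-20). The limma adjusted p was 2.22e-06 with no variance trend and 7.02e-05 without replicate 2. Cfp lies on the minus strand of the X chromosome (20925454 to 20931555, ENSMUSG00000001128), with 9 exons and 1636 bases in its longest transcript and no overlapping annotated gene.

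The C1q genes were low and close to one another. C1qa was at 27.6 CPM in replicate 1 (142 reads), 16.3 CPM in replicate 2 (654 reads) and 12.3 CPM in replicate 3 (464 reads). C1qb was at 20.4, 12.9 and 10.1 CPM in replicates 1, 2 and 3, from 105, 516 and 381 reads. C1qc was at 21.7, 11.8 and 7.39 CPM, from 112, 474 and 278 reads. For each chain replicate 1 was the highest library and replicate 3 the lowest. The exact 95% Poisson interval of C1qa was 23.2 to 32.5 CPM in replicate 1, 15.1 to 17.6 CPM in replicate 2 and 11.2 to 13.5 CPM in replicate 3. These intervals did not overlap, and neither did those of C1qc, at 17.9 to 26.2, 10.8 to 12.9 and 6.55 to 8.31 CPM. For C1qb replicate 1 (16.7 to 24.7 CPM) stood apart from replicate 2 (11.8 to 14.0 CPM), which stood apart from replicate 3 (9.14 to 11.2 CPM).

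Against 10 CPM, C1qa was called above and the other chains were not called. C1qa averaged 18.7 ± 7.91 CPM (SD, n = 3), a log2 difference of 0.77 from 10 CPM (SE 0.21, limma adjusted p = 0.00170). The call was lost without replicate 2 (limma adjusted p = 0.0925) and with no filter on low values (limma adjusted p = 0.0540). C1qb, at 14.5 ± 5.31 CPM (SD, n = 3), missed the threshold (log2 0.44, SE 0.21, limma adjusted p = 0.0609) and passed it on recovered reads (edgeR adjusted p = 0.0324, DESeq2 adjusted p = 0.0455) and without replicate 3 (limma adjusted p = 0.0305). C1qc, at 13.6 ± 7.35 CPM (SD, n = 3), differed from 10 CPM by 0.29 in log2 (SE 0.24, limma adjusted p = 0.253). Without replicate 1 its log2 level was -0.085 (limma adjusted p = 0.755), and without replicate 3 it was 0.63 (limma adjusted p = 0.0441), so its side of 10 CPM rests on which library is left out.

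The 3 C1q genes stand side by side on GRCm38 chromosome 4, all on the minus strand, in a span of 18675 bases. C1qb (136880129 to 136886187, ENSMUSG00000036905) is followed after 3616 bases by C1qc (136889804 to 136893065, ENSMUSG00000036896), and after a further 2851 bases by C1qa (136895917 to 136898803, ENSMUSG00000036887). No other annotated gene lies between them or overlaps them, and each is protein-coding with 3 exons in its longest transcript. The bases before the start sites of C1qb and C1qc are shown with those of C3. They are the 250 bases before the RefSeq start (GRCm38.p6), read on the gene's own minus strand, at chr4:136886201-136886450 for C1qb, chr4:136892915-136893164 for C1qc and chr17:57228137-57228386 for C3. Capitals mark matches to the motifs searched.
C1qb: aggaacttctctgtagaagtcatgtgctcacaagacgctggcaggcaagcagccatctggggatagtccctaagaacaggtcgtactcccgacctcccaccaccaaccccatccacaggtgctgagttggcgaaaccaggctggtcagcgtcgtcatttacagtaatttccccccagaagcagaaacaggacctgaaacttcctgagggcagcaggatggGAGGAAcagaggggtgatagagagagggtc
C1qc: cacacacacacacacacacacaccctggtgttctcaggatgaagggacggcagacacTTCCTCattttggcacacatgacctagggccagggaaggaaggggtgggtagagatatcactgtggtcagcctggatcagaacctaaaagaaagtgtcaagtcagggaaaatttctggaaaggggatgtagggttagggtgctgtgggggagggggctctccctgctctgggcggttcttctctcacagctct
C3: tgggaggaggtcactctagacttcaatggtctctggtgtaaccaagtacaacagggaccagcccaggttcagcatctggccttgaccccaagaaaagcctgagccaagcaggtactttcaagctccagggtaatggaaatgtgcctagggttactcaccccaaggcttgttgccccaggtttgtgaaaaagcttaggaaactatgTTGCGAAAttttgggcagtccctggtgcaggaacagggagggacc
The motifs were GAGGAA, a core of the kind bound by the myeloid factor PU.1, TTGCNNAA, a type bound by C/EBP factors of granulocytes, a longer joint PU.1 and IRF type that shares the letters GGAA with the first, and a MAF type. Both strands were searched in the 6 members with a window in the RefSeq table, which were all but C1qa. GAGGAA stood 30 to 25 bases before the RefSeq start of C1qb on the gene's strand. It stood 193 to 188 bases before that of C1qc on the other strand, where it reads TTCCTC. The C1qc span given above starts, on the minus strand, at 136893065. That lies inside this window, so counted from there the match would be nearer and part of the window would fall within the gene. TTGCNNAA stood 45 to 38 bases before the start of C3. Among all 32851 windows of the table, 23.3% held GAGGAA, 9.56% held TTGCNNAA, 2.30% held the joint PU.1 and IRF type and 0.323% held the MAF type. Vsig4 held GAGGAA at a pair of positions, while Cfp and C3ar1 held none of the motifs. A match of letters is no evidence of binding, and its absence from this window says nothing of the factor.

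Both receptors among the 7 were lower than the other members, C3ar1 at a few CPM or less and Vsig4 at 1 read in all. C3ar1 was at 1.17 CPM in replicate 1 (6 reads), 2.07 CPM in replicate 2 (83 reads) and 0.718 CPM in replicate 3 (27 reads). Replicate 2 was the highest, unlike for the C1q genes, and its exact 95% Poisson interval (1.65 to 2.56 CPM) did not overlap that of replicate 3 (0.473 to 1.04 CPM), while that of replicate 1 (0.428 to 2.54 CPM) overlapped both. C3ar1 averaged 1.32 ± 0.687 CPM (SD, n = 3) and was called below 10 CPM (log2 level -2.29, SE 0.33, limma adjusted p = 1.21e-06). Vsig4 had 1 read in replicate 1, which is 0.194 CPM with an exact 95% Poisson interval of 0.00492 to 1.08 CPM. It had 0 reads in replicates 2 and 3, and with too few reads it was not tested. C3ar1 lies on chromosome 6 (122847138 to 122856161, ENSMUSG00000040552) and Vsig4 on the X chromosome (96247203 to 96293438, ENSMUSG00000044206), both on the minus strand of GRCm38. Of the 7 genes, 6 thus entered the test, with 3 called above 10 CPM, 1 below and 2 not called, which is no larger a share above than the 58.8% of all tested genes.

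**Figure D1:**
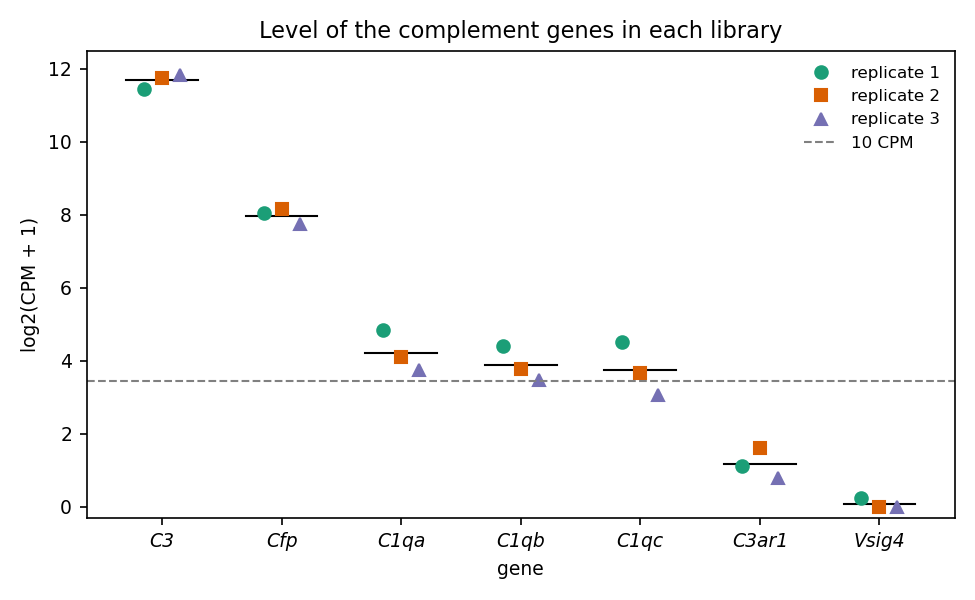
Level of each of the 7 complement genes as log2(CPM + 1), with 1 symbol per library, a bar at the mean of the 3 libraries and a dashed line at 10 CPM. C3 (mean 3317 CPM) and Cfp (254 CPM) lie well above the C1q genes (13.6 to 18.7 CPM), which have replicate 1 on top, and C3ar1 and Vsig4 lie near 0.

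To compare different genes, CPM were divided by the length of all annotated exons of a gene in kb. On this scale C3 was at 645 ± 88.1 and Cfp at 146 ± 19.8 CPM per kb, against 18.0 ± 7.60 for C1qa, 13.3 ± 4.88 for C1qb and 7.07 ± 3.81 for C1qc (SD, n = 3). C3ar1 was at 0.306 ± 0.160 CPM per kb. The order was thus C3, Cfp, C1qa, C1qb, C1qc, C3ar1 and Vsig4, in which the library values of neighbouring C1q genes overlapped. The counting intervals of C3ar1 and Vsig4 overlapped in replicate 1, and the values of the other neighbours lay apart. The C1qc value depends on its gene model. Its exons cover 1931 bases when a non-coding second transcript is included and 1203 bases in the longest transcript, on which C1qc was at 11.3 ± 6.11 CPM per kb (SD, n = 3).

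C3 and Cfp each exceeded the C1q genes within every library. The difference of log2(CPM per kb + 0.1) between C3 and the mean of the 3 C1q genes was 4.93 in replicate 1, 6.00 in replicate 2 and 6.55 in replicate 3, with a mean of 5.83 ± 0.82 (SD, n = 3), or 56.8-fold. Between Cfp and the same mean it was 3.08, 3.95 and 4.03, with a mean of 3.69 ± 0.53 (SD, n = 3), or 12.9-fold. Both differences were positive in 3 of 3 libraries and smallest in replicate 1. An exact two-sided sign-flip permutation test gave p = 0.25 for each, the smallest that 3 libraries allow, and an adjusted p of 0.25 over 5 comparisons between members, so the design cannot pass a threshold of 0.05 here. The C1q gene chosen mattered for the size. C3 exceeded C1qa by 5.23, C1qb by 5.64 and C1qc by 6.62 on the log2 scale, and Cfp exceeded them by 3.09, 3.50 and 4.48.

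Per kb, the C1q chains had the same order within each library. C1qa exceeded C1qb by 0.50, 0.40 and 0.35 on the log2 per kb scale in replicates 1, 2 and 3, a mean of 0.42 ± 0.077 (SD, n = 3). C1qb exceeded C1qc by 0.98 ± 0.27 and C1qa exceeded C1qc by 1.39 ± 0.19 (SD, n = 3). All 3 differences were positive in 3 of 3 libraries (exact sign-flip permutation p = 0.25, the smallest possible). The differences to C1qc shrank to 0.30 ± 0.27 for C1qb and 0.72 ± 0.20 for C1qa with the longest transcript as length (SD, n = 3). In plain CPM, C1qb exceeded C1qc by 0.16 on average, with C1qc the higher in replicate 1, and C1qa exceeded C1qc by 0.51.

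**Figure D2:**
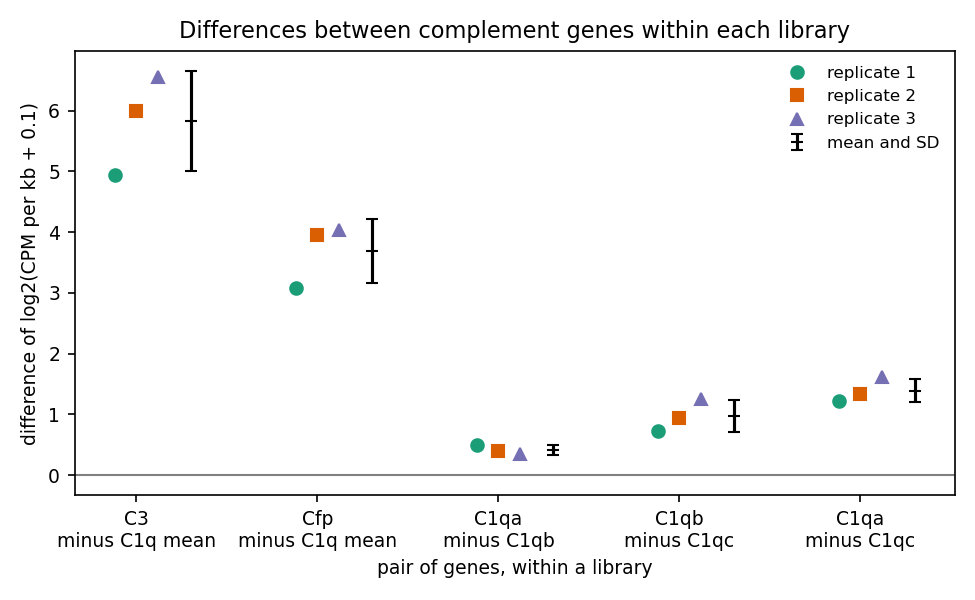
Differences between genes within each library, as log2(CPM per kb + 0.1) of the first gene minus that of the second, with 1 symbol per library and the mean with its SD beside them. C3 lies 4.93 to 6.55 and Cfp 3.08 to 4.03 above the mean of the C1q genes, and the C1q chains lie within 0.35 to 1.61 of one another.

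The C1q genes varied between libraries by more than C3 or Cfp. The SD of log2(CPM + 1) over the 3 libraries was 0.20 for C3 and 0.20 for Cfp, against 0.56 for C1qa, 0.48 for C1qb and 0.72 for C1qc. Over the 7283 genes averaging 10 CPM or more the median SD was 0.22, and 7.39% of them reached 0.48 or more. As a share of the reads of C3 and C1q together, not corrected for length, C1q reads made up 2.42% in replicate 1 (exact 95% Clopper-Pearson interval 2.18 to 2.68%). In replicate 2 they made up 1.17% (1.11 to 1.23%) and in replicate 3 0.806% (0.759 to 0.854%). The 3 intervals did not overlap.

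Depth, levels by transcript length and marker sums of other cells also differed between the libraries, not all in the order of the C1q genes. Replicate 1, highest for C1q, was also the shallowest library. Genes with short transcripts were higher in replicate 1 than in replicate 3, and genes with long ones were lower. The median difference in log2(CPM + 1) between these libraries was 0.25 for 454 genes with a longest transcript over 1000 and up to 1500 bases, the class of the C1q genes, with quartiles of -0.033 and 0.52. For 1746 genes over 5000 bases, the class of C3, it was -0.42, with quartiles of -0.66 and -0.20. C3 itself differed by -0.39 and Cfp by 0.28, both inside the quartiles of their classes in this contrast. Cfp lay outside them in the other contrasts, at -0.11 between replicates 1 and 2 (lower quartile -0.089) and 0.39 between replicates 2 and 3 (upper quartile 0.17). The C1q genes differed by 1.10 (C1qa), 0.94 (C1qb) and 1.44 (C1qc), each above the upper quartile of its class. Between replicates 1 and 2 the C1q genes differed by 0.72, 0.63 and 0.83, where the class had a median of 0.11 and an upper quartile of 0.34. Between replicates 2 and 3 they differed by 0.37 (C1qa), 0.32 (C1qb) and 0.61 (C1qc), against a class median of 0.11 and an upper quartile of 0.34, so C1qb lay inside the quartiles there, and C1qa and C1qc above them. The length classes were chosen after the values were seen.

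**Figure D3:**
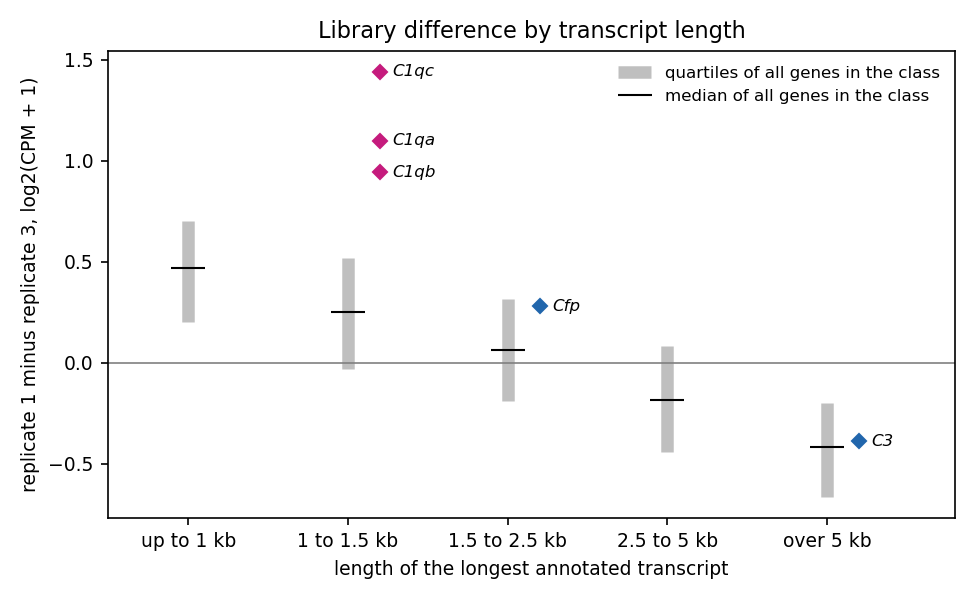
Difference of log2(CPM + 1) between replicate 1 and replicate 3 for genes averaging 10 CPM or more, grouped by the length of the longest annotated transcript in kb, with the class median as a black dash, the quartiles as a grey bar and the complement genes as diamonds. C3 (-0.39) and Cfp (0.28) lie within the bars of their classes, and the C1q genes (0.94 to 1.44) lie above theirs.

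Summed marker levels also differed by library. The 16 macrophage markers summed to 235, 232 and 265 CPM in replicates 1, 2 and 3, with 8 of 16 highest and 4 of 16 lowest in replicate 1 and none at 0 in all libraries. Over the 7283 genes, 29.4% were highest in replicate 1. The 7 erythroid markers summed to 1002, 554 and 531 CPM and the 7 listed basophil and mast cell markers to 1530, 746 and 813 CPM, both highest in replicate 1 as the C1q genes were. Hdc, the basophil and mast cell marker of highest mean, ran the other way (552, 609 and 675 CPM), and the other 6 summed to 978, 137 and 138 CPM. The 9 eosinophil markers summed to 629, 1073 and 1465 CPM, with 9 of 9 lowest in replicate 1. For the 10 monocyte markers, of which Vcan was at 0 in all libraries, the sums were 1186, 1071 and 966 CPM. Most of each sum was Ly6c2 (1141, 1017 and 932 CPM), and 3 of 10 were highest in replicate 1. The 5 primary granule markers summed to 7165, 5361 and 6030 CPM, and the 13 late neutrophil markers to 229015, 230998 and 193589 CPM. B cell markers (7 genes) summed to 237, 202 and 250 CPM and dendritic cell markers (5 listed) to 8.74, 5.03 and 4.02 CPM. Most of each B cell sum was Ighm (197, 181 and 222 CPM), while 5 of the 7 genes were highest and 1 lowest in replicate 1. The part of other cells, depth and transcript length in the C1q differences was not tested.

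Around the 7 members, 52 complement genes in 5 lists were looked up, members included, and 23 were listed. Of these, 19 had enough reads to be tested, with 11 above 10 CPM, 4 below and 4 not called, a share above near the 58.8% of all tested genes, and the median over the 23 was 14.5 CPM, against 19.7 CPM over all listed genes. In the classical and lectin list 8 of 19 genes were listed, with 2 above, 1 below and 3 not called. The other gene above besides C1qa was Fcnb, which encodes ficolin B, a lectin pathway recognition protein made by granulocyte precursors. Fcnb was at 1292, 1181 and 1108 CPM in replicates 1, 2 and 3, a mean of 1193 ± 92.8 CPM (SD, n = 3, log2 6.76 over 10 CPM, SE 0.10, limma adjusted p = 7.22e-24). At the lower end were Colec12, a collectin with 0 reads in every library, and C4b with 2 reads, all in replicate 1. C4b is nearly identical to C4a in sequence, so its reads may have been split in counting.

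Fcna, which encodes ficolin A, the form made by macrophages of liver and spleen, is given because its values resembled those of C1q, a choice made after they were seen. It was at 14.2, 8.27 and 4.76 CPM in replicates 1, 2 and 3, with replicate 1 the highest and replicate 3 the lowest, and was not called (log2 -0.24, SE 0.26, limma adjusted p = 0.382). Per kb of exon the 2 ficolins thus differed widely, with 891 ± 69.3 CPM per kb for Fcnb and 6.60 ± 3.46 for Fcna (SD, n = 3). Between replicates 1 and 3, Fcnb differed by 0.22 on the log2(CPM + 1) scale, at the 0.25 of its length class, and Fcna by 1.40.

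Of the alternative pathway list, 3 of 4 genes were listed, and both that were tested, C3 and Cfp, were above 10 CPM. Cfb, which encodes factor B, the protease that pairs with C3b, had 0 reads in every library. Annotated genes overlapping Cfb were not looked up, as they were for the members, so 0 reads may not mean absence. None of the 7 terminal pathway genes was listed, and their level is unknown. Receptors were the fullest list, with 9 of 10 genes listed, 5 above 10 CPM, 2 below, 1 not called and Vsig4 not tested. Over all tested genes 58.8% were above and 28.3% below, so the share of receptors above was near that of all genes.

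The 5 receptor genes above 10 CPM were both chains of the integrin CR3, both C5a receptors and Cd93. Itgb2, the beta chain of CR3, was at 2070, 2299 and 2433 CPM in replicates 1, 2 and 3, and Itgam, its alpha chain and the CD11b of the gate, at 483, 460 and 565 CPM. C5ar1, the C5a receptor that draws granulocytes to sites of complement activation, was at 352, 359 and 406 CPM, a mean of 372 ± 29.4 CPM (SD, n = 3, log2 5.08 over 10 CPM, SE 0.11, limma adjusted p = 1.44e-21). These 3 genes had libraries within a narrow range, with replicate 3 the highest for each. C5ar2, the second C5a receptor, was at 20.4, 32.6 and 34.2 CPM and called above (limma adjusted p = 1.40e-07), and Cd93, once described as a C1q receptor, at 21.0, 30.3 and 34.4 CPM (limma adjusted p = 1.42e-07). Both were lowest in replicate 1, where the C1q genes were highest, and neither was set beside genes of its transcript length. C1qbp, which encodes a mitochondrial protein that binds the globular heads of C1q, was at 17.7, 9.69 and 10.7 CPM and not called (limma adjusted p = 0.244). Itgax, the alpha chain of CR4, was below at 5.63, 5.63 and 5.61 CPM (limma adjusted p = 0.00871), a gene named after its values were seen, and lost the call without replicate 2 (limma adjusted p = 0.0815).

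Among anaphylatoxin receptors, that of C5a was thus far above that of C3a. C5ar1 was at 145 ± 11.4 CPM per kb and C3ar1 at 0.306 ± 0.160 CPM per kb (SD, n = 3), with no overlap between libraries. The reads of C5ar1 numbered 1811, 14406 and 15260, against 6, 83 and 27 for C3ar1.

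Regulators that protect host cells from complement were listed for 3 of 12 genes, with 2 above 10 CPM and 1 below. The shares over all tested genes were 58.8% above and 28.3% below, and 3 genes are too few to differ from them. Cr1l, which encodes Crry, a rodent membrane inhibitor of C3 cleavage, was at 54.2, 45.3 and 57.4 CPM (limma adjusted p = 8.72e-13). Cd55, decay accelerating factor, was at 48.0, 38.6 and 37.7 CPM (limma adjusted p = 4.51e-11). Cd46, a cofactor for cleavage of C3b that mice carry mainly in the testis, was below at 4.85, 1.69 and 4.52 CPM (limma adjusted p = 0.000291).

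**Figure D4:**
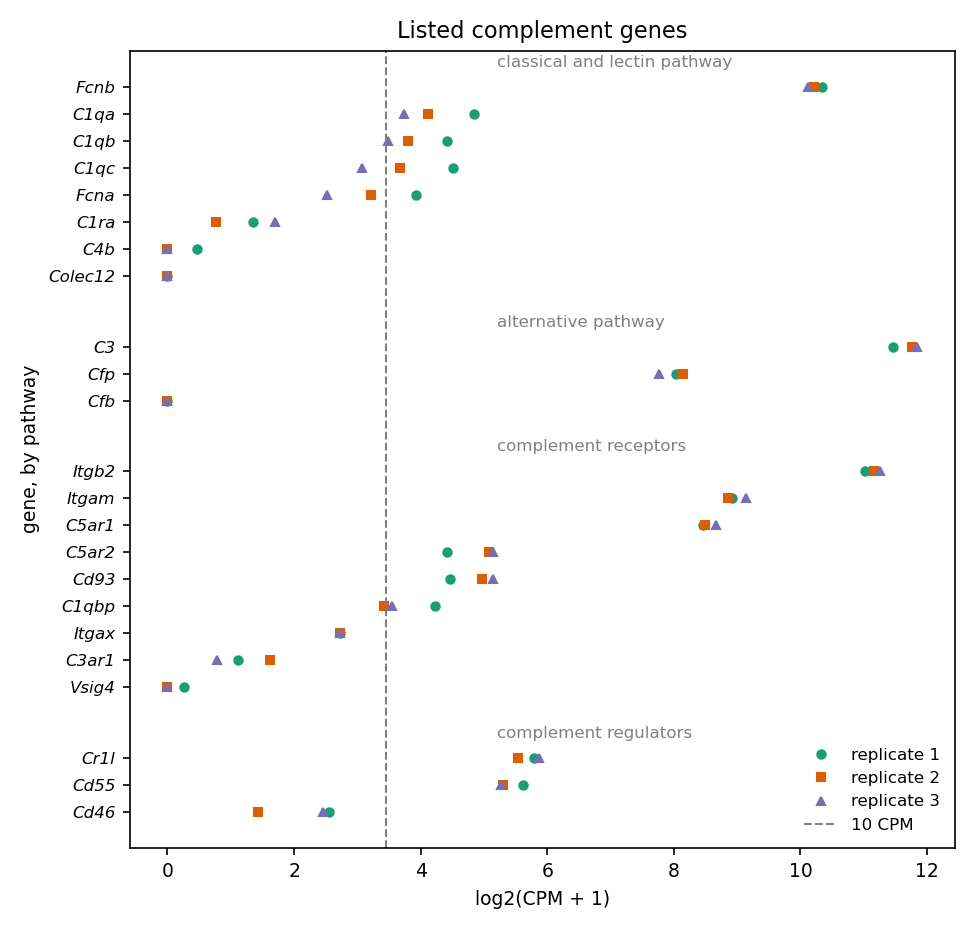
Level of the 23 listed complement genes as log2(CPM + 1), grouped by pathway from classical and lectin at the top to regulators at the bottom, with 1 symbol per library and a dashed line at 10 CPM. C3, Fcnb, Itgb2, Itgam, C5ar1 and Cfp lie far to the right (means of 254 to 3317 CPM), and the C1q genes with Fcna lie around the line with replicate 1 farthest right.

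Profiles over the libraries were compared as a description, with 3 libraries leaving little to tell genes apart. Among 8236 genes with at least 30 reads in each library, those whose centred log2(CPM + 1) profile was nearest to that of the summed C1q genes were Mrpl17, 2310039H08Rik, Ndufs3, 0610009B22Rik and Mrpl42, with root mean square differences of 0.0090 to 0.042. Mrpl17, the nearest, was at 34.8, 20.5 and 14.8 CPM in replicates 1, 2 and 3. Nearest to C3 were Selplg, Eif4ebp2, Ak3, Hnrnpul1 and Cwf19l1, with differences of 0.0016 to 0.0037. Selplg, the nearest, was at 499, 615 and 653 CPM. Many genes shared such profiles, and with a pseudocount of 0.1 only 1 of the 5 genes nearest to C1q stayed among the nearest 5.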

How the data were processed

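Messenger RNA libraries of 1 sorted population were analysed, with groups and replicate numbers as labelled. The deposited values were CPM made by the authors. The submitters' processing notes name FastQC, STAR, featureCounts, edgeR, mm10 and GRCh38. Tool versions, annotation, strand setting and gene filter are not given in the sources used here. Reads of a gene and of an antisense partner may therefore not be told apart. From the 11463 entries of a file, 44 that repeated another gene identifier and its value were dropped. In each library 100% of values were whole multiples of 1 read within 0.01 reads. The recovered totals were 5150020, 40149274 and 37604930 reads in replicates 1, 2 and 3.

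Genes that reached 10 recovered reads in all libraries together were fitted with limma 3.58.1 in R 4.3.3. An intercept on log2(CPM + 1), with empirical Bayes moderation and a variance trend, was tested two-sided against 10 CPM, with Benjamini-Hochberg adjustment over 11123 genes. Folds on this scale understate the change of low genes. edgeR 4.0.16 and DESeq2 1.42.0 were run on recovered reads as alternatives. The 3 fits were also run on simulated data. There most genes were set to 10 CPM with 1 spread shared by all genes, unlike the real data, so that run does not bear on the calls given here. Differences between members were taken within a library. They were tested with exact sign flips in Python 3.11.15. Gene models came from GENCODE M21 (GRCm38, the assembly of mm10), where 99.9% of genes had a length.

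Genes named were the 7 members, listed complement genes averaging 10 CPM or more, up to 2 of the lowest per list, and the 5 nearest profiles. Of the genes this takes, 1 is not reported here. The members and lists were chosen with earlier results of these data known. Other settings tried were the pseudocount, the filter, the scaling, the level, gene length and leaving out each library.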

Additional observations from a re-analysis of the deposited data

How the results depend on the processing

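C3, Cfp and C3ar1 kept their calls against 10 CPM under all 12 alternatives run, and the 41 alternatives for differences between members all kept the direction. The highest adjusted p over the 12 alternatives was 6.20e-05 for C3 and 7.02e-05 for Cfp (limma, without replicate 2). For C3ar1 it was 0.00887 (edgeR adjusted p). The adjusted p ranged over the alternatives from 1.69e-07 to 0.462 for C1qa, from 6.76e-06 to 0.493 for C1qb and from 0.000113 to 0.755 for C1qc. With the level at 20 CPM the log2 level changed sign for C1qa (-0.16), C1qb (-0.50), C1qc (-0.64) and C1qbp (-0.66), and with the level at 5 CPM for Fcna (0.64) and Itgax (0.14), as the level itself moved. Leaving out 1 library gave -0.085 to 0.63 for C1qc and -0.59 to 0.11 for Fcna. At 5 CPM 1870 genes were below the level, against 3153 at 10 CPM. Cd46 lost its call there (limma adjusted p = 0.167). Of the 5 genes nearest in profile, 3 stayed for C1q and 3 for C3 with at least 100 reads per library, and 1 and 3 with a pseudocount of 0.1. The cause was not tested. In plain CPM the log2 difference was 7.82 between C3 and C1q and 4.11 between Cfp and C1q. Exons cover 5143 bases in C3 and 1736 in Cfp, against 1040 in C1qa, 1088 in C1qb and 1931 in C1qc. With only 1 group there were no groups to pair, and the only paired comparisons were those between members within a library. At the depth of replicate 1, a gene under 0.583 CPM could not be told from one that was absent.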

Other observations

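Macrophage markers did not all follow the libraries as the C1q genes did. These genes were picked after their values were seen. Cd5l, which encodes a secreted scavenger protein of tissue macrophages, was at 11.8, 6.38 and 3.88 CPM in replicates 1, 2 and 3, and Axl, a receptor for uptake of dying cells, at 22.3, 16.9 and 11.2 CPM. Mertk, a receptor of the same family, was at 1.55, 0.996 and 0.479 CPM, from only 8, 40 and 18 reads. All 3 had replicate 1 highest and replicate 3 lowest, as C1qa, C1qb and C1qc had. Siglec1, the CD169 gene of the gate, had the reverse, with 0.388, 3.66 and 4.57 CPM from 2, 147 and 172 reads. Csf1r, the receptor of the macrophage growth factor, was lowest in replicate 1, at 39.8 CPM against 66.6 and 59.0 CPM, and so was Adgre1, the F4/80 gene, at 18.6 CPM against 26.5 and 21.4 CPM. Vcam1, the macrophage marker of highest mean, was highest in replicate 3, at 72.2, 56.2 and 94.6 CPM in replicates 1, 2 and 3. Of all 16 macrophage markers, 8 were highest and 4 lowest in replicate 1. Among the 7283 genes averaging 10 CPM or more, 29.4% were highest there. The differences between libraries were not tested, and these markers were not set beside genes of the same transcript length.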
